A study of Mus musculus with 6 samples.

Results

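The 8730 intergenic regions bound by DPPA4 in both cell states fell mostly into 2 kinds. Summits lay in sequence that occurs once in the genome assembly in 51.8% and in multi-copy sequence, present 10 or more times, in 42.3%. This make-up moved with the peak threshold, and 69.1% were multi-copy where −log10 q was at least 5 in every peak. Intergenic regions of the GFP-positive list alone had a similar split, with 50.2% single-copy and 35.7% multi-copy. Multi-copy members made up 890 of the 997 that were among the strongest 10% of both lists. Of the 3184 members in sequence present at least 100 times, 1906 (59.9%) lay upstream of a long open reading frame, and 1756 of these had a shorter frame in between, the arrangement of a LINE-1 retrotransposon. The single-copy kind was weaker, lay closer to genes, and carried GC boxes, CCAAT boxes and matches to the CTCF consensus more often than the DNA around it.

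These regions were chosen by rule from the peak lists themselves. Peaks of GFP-negative and GFP-positive cells on chromosomes 1 to 19 were merged where they shared at least 1 bp, and a region was kept if it held peaks of both lists, was at most 4 kb wide, and had its midpoint outside every gene of the GENCODE vM21 annotation and outside the stretch from 2.5 kb upstream to 0.5 kb downstream of every transcript start. Of 97623 merged regions, 33751 (34.6%) held peaks of both lists, and 8730 of these met the rule. Among all intergenic regions of that width, 8730 of 30509 (28.6%) held peaks of both lists. Binding in both lists, position and width were used for the choice and are no findings.

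Mouse embryonic stem cells (ESCs) of the EHMT2-dTAG-mcherry-mervl-gfp line, on a BL6/129 hybrid background, were used. In this line EHMT2, a histone methyltransferase that deposits H3K9me2, carries a degron tag and mCherry, and GFP reports activity of the retroviral element MERVL. All groups were treated with dTAG for 72 h, so EHMT2 was targeted for degradation in both states, and live cells were sorted by GFP. GFP-positive cells stand for 2-cell-like cells (2CLCs) and GFP-negative cells for ESCs, an assignment that rests on the reporter, since peak lists hold no expression values to check it. Each list pooled 2 DPPA4 CUT&RUN libraries, so there is no spread between replicates for any value below, no difference was tested, and intervals are Wilson 95% intervals that cover counting error only and treat neighboring regions as independent. The study's methods give a nominal sequencing depth per library, but not the number of reads kept behind either list, so a region missing from either may have been missed for want of reads.

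DPPA4 is a DNA-binding protein of ESCs, germ cells and the early embryo that acts with its partner DPPA2 and is needed for the activation of genes of the 2-cell stage. CUT&RUN maps where a protein sits by letting an antibody guide a nuclease to it and sequencing the fragments released. LINE-1 elements are retrotransposons that copy themselves through RNA. A full-length element has a promoter at its 5′ end, then a shorter frame, ORF1, and then the long frame of ORF2, which encodes the endonuclease and reverse transcriptase.

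The YY1 pattern and its surroundings in frame-linked members are shown first, since 1036 of 1041 matches had the same orientation to the long frame. Each line gives the 29 bases around the exact 9-base YY1 pattern (AAGATGGCG, read on either strand) on the strand of the long frame, so that the pattern appears as its reverse complement, which is in capitals. YY1 is a zinc finger factor that binds many promoters. The coordinates are those of a strongly bound member with that context (mm10, bases from the RefSeq assembly GRCm38.p6).
Context 1, chr4:23653033-23653061, minus strand: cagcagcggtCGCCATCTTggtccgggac
Context 2, chr15:91086328-91086356, minus strand: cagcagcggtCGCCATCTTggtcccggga
Context 3, chr2:148460831-148460859, plus strand: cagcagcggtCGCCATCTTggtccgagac
Context 4, chr3:5435966-5435994, plus strand: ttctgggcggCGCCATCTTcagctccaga
Of 971 frame-linked members whose window held the pattern with 10 bases on either side, 393 (40.5%) had context 1, 162 (16.7%) context 2, 142 (14.6%) context 3 and 103 (10.6%) context 4, out of 51 distinct contexts. The first 3 differ only after the pattern, whereas context 4 differs on both sides of it.

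The bases at the summits of 3 of the strongest single-copy members are shown with CG dinucleotides in capitals for the first and the third, and with the exact ETS pattern (CCGGAAGT) in capitals for the second. ETS factors are a family of activators found at many promoters.
chr19:61266624-61266724, plus strand: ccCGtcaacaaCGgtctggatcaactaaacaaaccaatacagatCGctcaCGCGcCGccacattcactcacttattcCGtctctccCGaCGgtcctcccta
chr15:85634630-85634730, plus strand: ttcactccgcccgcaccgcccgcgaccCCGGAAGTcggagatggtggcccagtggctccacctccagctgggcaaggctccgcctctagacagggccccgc
chr16:17222336-17222436, plus strand: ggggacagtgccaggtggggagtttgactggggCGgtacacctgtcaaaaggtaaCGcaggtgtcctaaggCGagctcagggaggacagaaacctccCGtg
The second holds an ETS match beside several GC-rich stretches, and the other two hold none of the searched patterns within these bases.

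Sites of named factors were also shown by sequence in the strongest single-copy members that held them with room on both sides. The match to the CTCF consensus is in capitals in the first 3, and the match to the OCT4-SOX2 composite site in the last 3. CTCF is the main insulator protein of the genome, and OCT4 and SOX2 are core factors of pluripotency.
chr8:18954166-18954217, plus strand: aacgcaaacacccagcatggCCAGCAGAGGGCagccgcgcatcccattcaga
chr11:120169435-120169486, minus strand: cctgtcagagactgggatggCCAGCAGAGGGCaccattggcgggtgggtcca
chr9:106351267-106351318, plus strand: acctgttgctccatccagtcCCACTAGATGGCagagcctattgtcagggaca
chr16:21702061-21702114, plus strand: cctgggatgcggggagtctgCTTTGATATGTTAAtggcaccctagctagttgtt
chr13:113288419-113288472, plus strand: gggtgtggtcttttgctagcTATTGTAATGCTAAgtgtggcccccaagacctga
chr7:63957227-63957280, plus strand: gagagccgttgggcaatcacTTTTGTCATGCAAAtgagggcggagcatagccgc
The nearest protein-coding genes of the CTCF examples were *Xkr5* at 3.32 kb, *Slc38a10* at 18.4 kb and *Dusp7* at 17.3 kb, measured from the region midpoint to the transcript start. Those of the OCT4-SOX2 examples were *2510009E07Rik* at 7.30 kb, *BC067074* at 4.82 kb and *Klf13*, a GC-box binding factor, at 18.1 kb.

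To describe how strongly members were bound, the authors' fold enrichment over the local background and −log10 q were taken from the strongest peak of each list in a region. Fold enrichment of members ranged from 1.45 to 56.1 in the GFP-negative list, with a median of 5.92 (quartiles 4.19 and 9.33). In the GFP-positive list it ranged from 1.46 to 47.7, with a median of 4.89 (quartiles 3.70 and 7.83). Because the lists were made from separate libraries, strength was compared between them by rank, as the percentile of −log10 q within all peaks of the own list on these chromosomes. The GFP-negative list held 81913 peaks there and the GFP-positive list 53110. Percentiles in lists of unlike length and make-up are not on 1 scale, so differences between them describe rank and not the amount bound. The median member ranked at percentile 70.6 in GFP-negative and 64.3 in GFP-positive cells. Most members were simple, and 8372 (95.9%) held exactly 1 peak of each list. The summits lay a median of 60 bp apart (quartiles 17 and 159 bp), and within 200 bp in 80.7%. Across all 8730 members, fold enrichment in both lists had a Spearman correlation of 0.58, a description over regions that share the same libraries.

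Copy number divided the members. It was taken as the median count, over both strands of chromosomes 1 to 19, X and Y, of the 31-base words in the 200 bp at the summit. The summit of a region bound in both states was the mean position of the summits of its strongest peaks in both lists. Regions of 1 list alone had the summit of their strongest peak. Where both summits of a member lay far apart, the window centers on neither. The same summit served for the CpG, pattern and frame values, so classes were not measured wholly alike. A copy number of 1 was found for 4521 members (51.8%, interval 50.7 to 52.8), 2 to 9 for 515 (5.90%), 10 to 99 for 510 (5.84%), and 100 or more for 3184 (36.5%, 35.5 to 37.5). The 4521 include 1 member with a count below 1. Copies absent from the assembly are not counted. Only 2.28% of intergenic regions found in the GFP-negative list alone had a copy number of 100 or more, as had 23.6% of those in the GFP-positive list alone, 1.26% of promoter regions bound in both states and 8.50% of 115925 intergenic windows of 200 bp placed every 10 kb. A copy number of 1 was found for 50.2% of the intergenic regions of the GFP-positive list alone and 91.7% of those of the GFP-negative list alone. Soft-masked bases, which mark repeats and low-complexity sequence in the assembly, made up 51.9% of member bases and 39.2% of all intergenic bases. They made up 60.8% of the bases of intergenic regions of the GFP-positive list alone and 21.9% for the GFP-negative list alone. Reads that matched several copies equally well had been placed at 1 of them at random, so a peak at a multi-copy member does not tell which copy was bound.

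**Figure D1:**
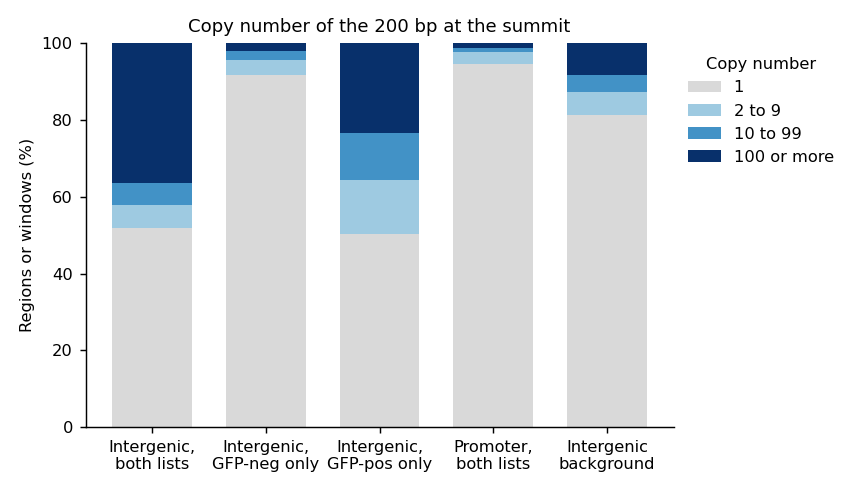
Share of regions (y axis, percent) by copy number of the 200 bp at the summit, for the members, 3 comparison classes and 115925 intergenic background windows. Copy numbers of 100 or more (darkest) take 36.5% of the members and 2.28% of the regions of the GFP-negative list alone.

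High-copy members were strong in both states at once. At copy number 100 or more, median fold enrichment was 8.10 in GFP-negative cells (quartiles 5.37 and 13.2) and 8.41 in GFP-positive cells (5.63 and 12.2), and the median percentiles were 82.7 and 87.0. Single-copy members had medians of 5.19 (3.90 and 7.67) and 3.96 (3.43 and 5.05), and percentiles of 63.99 and 46.3. Of the 997 members in the strongest 10% of both lists, 876 (87.9%) had a copy number of 100 or more and 84 (8.43%) were single-copy. Ranks also agreed more closely between the states at high copy number. The Spearman correlation of fold enrichment was 0.75 over 3184 high-copy and 0.37 over 4521 single-copy members. The percentile of a single-copy member in the GFP-positive list minus that in the GFP-negative list had a median of −13.98 points (quartiles −34.1 and 1.84). How far the shared random placement of reads among copies contributes to this likeness was not tested.

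**Figure D2:**
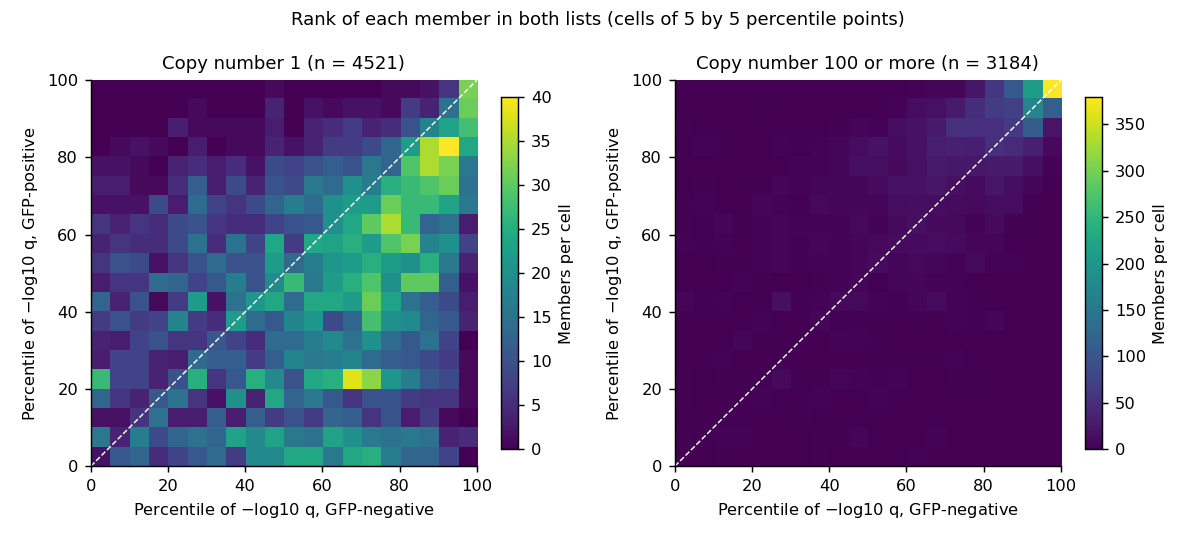
Percentile of −log10 q of each member in the GFP-negative list (x axis) and the GFP-positive list (y axis), as counts in cells of 5 by 5 points, for copy number 1 (left, n = 4521) and 100 or more (right, n = 3184), each with its own color scale. High-copy members gather in the upper right corner, whereas single-copy members spread out, mostly below the dashed line of equal rank.

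High-copy members were then placed relative to long open reading frames, since the deposited files and the annotation used here name no repeat classes. Frames of at least 1000 codons from ATG to stop numbered 4849 on these chromosomes. A summit lay upstream of such a frame, within 8 kb, in 1906 of 3184 members with a copy number of 100 or more (59.9%, 58.1 to 61.6). The nearest frame with the summit upstream of it was used, even where another frame lay closer. The share was 0.885% of the single-copy members, 17.7% (15.96 to 19.7) of high-copy regions found in the GFP-positive list alone, 9.17% (6.54 to 12.7) of those in the GFP-negative list alone and 7.15% (6.65 to 7.67) of high-copy background windows. The distance had a median of 1753 bp (quartiles 1634 and 1943 bp), and 1837 of the 1906 summits lay 1000 to 2500 bp before the frame. Frames ran on the plus strand for 961 of these members and on the minus strand for 945. The most frequent frame length was 1281 codons, found downstream of 1582 members, and 1756 (92.1%) had a frame of 300 to 450 codons between the summit and the long frame. This order, a shorter frame and then a long one, is that of LINE-1.

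The GFP-positive list alone differed in this respect. Of its 1635 high-copy intergenic regions, 336 were near a frame of 1044 codons, its most frequent length, as were 4 of the 3184 high-copy members. A frame of 1281 codons lay downstream of 50 of the 1635.

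**Figure D3:**
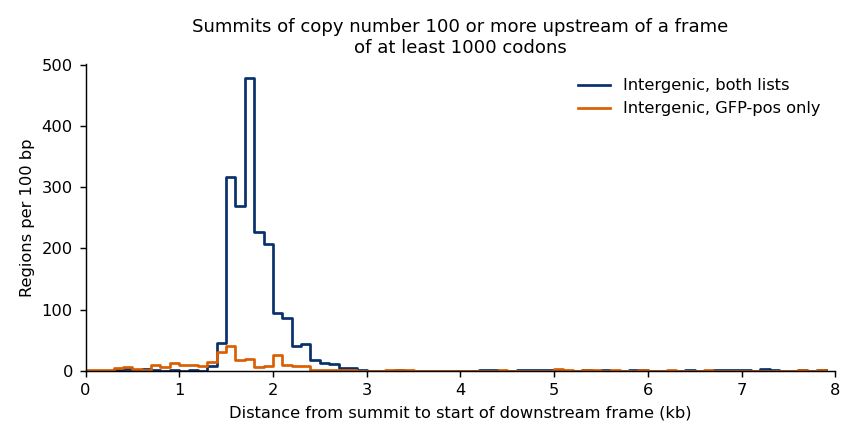
Number of high-copy summits (y axis, per 100 bp) by distance to the start of the nearest downstream frame of at least 1000 codons (x axis, kb), for members (dark line, 1906 summits) and intergenic regions of the GFP-positive list alone (orange line, 290 summits). Members form a peak around their median of 1753 bp.

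The same relation was counted from the side of the elements. There were 2012 intergenic pairs of a 300 to 450 codon frame followed by a frame of at least 1000 codons. A region bound in both states, of any width, lay within 4 kb upstream of the long frame at 1781 of them (88.5%, 87.1 to 89.8). Among pairs without such a region, 72 (3.58% of all pairs) had regions of the GFP-positive list alone and 19 (0.944%) of the GFP-negative list alone. No region was found at 140 (6.96%). Where the long frame had 1281 codons, 1487 of 1603 pairs (92.8%, 91.4 to 93.9) had a region bound in both states. Reads that matched several copies equally well had been placed at 1 of them at random. These shares therefore count elements with a peak and do not tell which elements were bound. How far the random placement raised them was not tested.

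Members upstream of a long frame had the higher enrichment among high-copy members. Their median fold enrichment was 10.4 in GFP-negative and 9.68 in GFP-positive cells, against 6.05 and 6.72 for the 1278 high-copy members without such a frame. The difference in rank between the states had a median of 1.28 percentile points (GFP-positive minus GFP-negative), with 68.2% within 10 points, against 47.4% of the other high-copy and 25.3% of the single-copy members. With median percentiles of 88.9 and 90.7, frame-linked members lay near the top of the scale, where differences in rank have less room. The region around context 1 (chr4:23651985-23653799, copy number 3258) had a fold enrichment of 31.3 in GFP-negative and 20.5 in GFP-positive cells, 844 kb from the start of *Mms22l*, the nearest protein-coding gene. The region around context 3 (chr2:148459820-148461457, copy number 1580) lay 17.1 kb from *Cd93*, with values of 27.9 and 22.9. The frame-linked members were GC-rich, with a median of 64.5% GC, and 51.7% passed the limits for CpG-rich sequence used here (at least 50% GC and an observed to expected CpG ratio of at least 0.6).

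The YY1 pattern was another feature of these members that the choice did not use. It was found in the 200-bp window of 1041 of 1906 frame-linked members (54.6%), with 1 match each, and in 413 of the 1278 other high-copy members (32.3%). In all multi-copy members the share was 40.6% (39.0 to 42.2), compared with 0.708% of single-copy members. Among multi-copy regions of the other classes it was 6.11% (5.23 to 7.12) of 2472 intergenic regions of the GFP-positive list alone, 7.28% (5.56 to 9.47) of 687 of the GFP-negative list alone, 23.2% (19.003 to 27.9) of 341 promoter regions bound in both states and 1.25% of background windows. Over all background windows it was 0.255%. In windows centered 2 kb to either side of multi-copy members it was 0.176%. Of the 1041 matches, 1036 ran against the strand of the long frame and 5 along it. Matches lay a median of 1688 bp before the frame (quartiles 1688 and 1900 bp). Copies of 1 element share their sequence, so these matches are not independent of each other.

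Of the 4 strongest multi-copy members, 2 had a low copy number. The regions at chr8:15519787-15520092 and chr18:68692068-68692292, both with a copy number of 11, had fold enrichments of 7.69 and 7.48 in GFP-negative and 8.85 and 7.79 in GFP-positive cells, but −log10 q values of 151 and 133 and of 207 and 143. They were narrow (306 and 225 bp) and far from coding genes, at 401 kb from *Myom2* and 263 kb from *Mc2r*. The chr8 summit lay 7679 bp before a frame of 1139 codons, much farther than most high-copy members, and no long frame was assigned to the chr18 region. The other 2 lay before frames of 1281 codons. The region at chr3:17733594-17736238 (copy number 481.5) had fold enrichments of 36.5 and 29.9, and the one at chr12:97819413-97821728 (copy number 1108.5) of 35.8 and 24.5. The RefSeq annotation placed the chr18 region inside the gene *Gm41766* and the chr3 region inside *Gm30340*.

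The densest gathering of members was a tandem array. In windows of 1 Mb, 2121 of 2473 held a member, with a median of 3, and the window from 114000001 to 115000000 of chromosome 6 held the most, 56. All 56 lay in 141 kb (chr6:114496838-114637386) between *Hrh1*, a histamine receptor gene, and *Atg7*, an autophagy gene. Their midpoints followed each other at a median of 2421 bp (quartiles 2056 and 2681 bp), and the most frequent distance at which a 31-base word recurred in this stretch was 2445 bp. The copy number was 4 to 55 with a median of 46.25, far below that of LINE-1-like members. Fold enrichment ranged from 2.45 to 13.9 in GFP-negative cells (median 6.15) and from 2.43 to 8.96 in GFP-positive cells (median 4.01), and was higher in the GFP-negative list at 44 of 56. The stretch also held 23 regions of the GFP-negative list alone and 0 of the GFP-positive list alone. On all these chromosomes, 14847 intergenic regions of up to 4 kb were of the GFP-negative list alone and 6932 of the GFP-positive list alone. The median fold enrichment of all members was also higher in the GFP-negative list, at 5.92 against 4.89. The member of the array with the highest lower percentile (chr6:114564884-114566734) had fold enrichments of 12.9 and 6.68, a GC content of 62.5% and a low CpG ratio of 0.213.

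**Figure D4:**
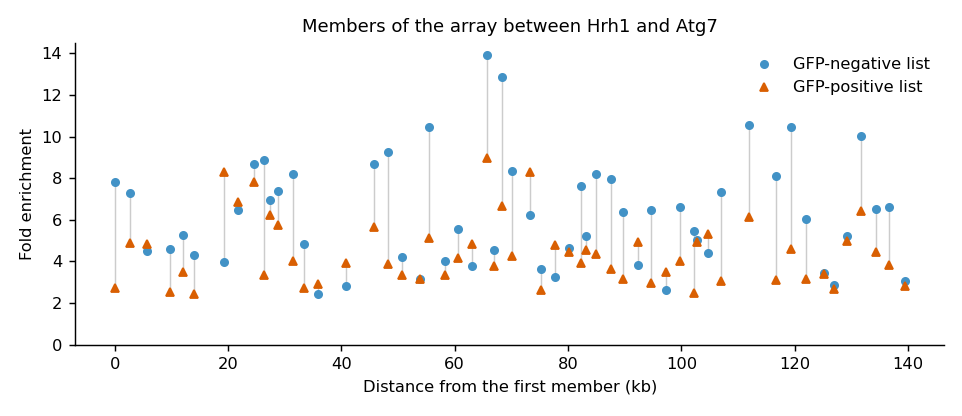
Fold enrichment (y axis) of the 56 members of the array between *Hrh1* and *Atg7* in the GFP-negative list (circles) and the GFP-positive list (triangles), by distance from the first member (x axis, kb). Gray lines join the values of 1 member, and the circle is the higher point at 44 of 56.

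The other dense windows were made mostly of single-copy members. They were dense in regions of every class as well, with 334, 245, 206 and 217 in all in the order given here. The window from 80000001 to 81000000 of chromosome 10 held 35 members, all of copy number 1, of which 6 had *Tcf3*, an E-protein gene, as their nearest coding gene and 5 *Onecut3*. The window from 133000001 to 134000000 of chromosome 4 held 34, of which 31 were single-copy, with 7 nearest to *Rps6ka1* and 4 to *Arid1a*, a chromatin remodeling subunit. The windows from 135000001 to 136000000 of chromosome 4, with 10 members nearest to *Runx3*, and from 122000001 to 123000000 of chromosome 5 held 27 each. Over the genome, 25.5% of members had another member within 10 kb. Members were found at 5.40 per Mb of intergenic sequence on chromosome 14 and 11.9 per Mb on chromosome 11. The multi-copy share ran from 19.2% on chromosome 11 to 62.3% on chromosome 6, which holds the array. Without the 56 array members it was 58.4% on chromosome 6, below 60.0% on chromosome 3 and 59.1% on chromosome 16.

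Single-copy members lay nearer to genes. Their median distance to any transcript start was 10.3 kb, and to a protein-coding start 17.0 kb, while at copy number 100 or more these medians were 35.8 and 168 kb. The median over all members was 16.4 kb. The RefSeq annotation placed 383 single-copy members (8.47%) in promoters and 510 (11.3%) in gene bodies that the GENCODE annotation did not hold, compared with 43 (1.16%) and 274 (7.42%) of multi-copy members. In all, 7425 of 8730 members (85.1%) were intergenic in both annotations.

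CpG-rich summits made up 479 of 4521 single-copy members (10.6%, 9.73 to 11.5) and 25.5% of all members. The share of all members was 42.3% where −log10 q was at least 5 in every peak, and 13.0% with stricter limits of 55% GC and a ratio of 0.65. The share was 3.76% of intergenic regions of the GFP-negative list alone, 10.4% of those of the GFP-positive list alone, 61.2% of promoter regions bound in both states and 0.557% of background windows. Among single-copy members CpG-rich summits ranked higher, at median percentiles of 75.9 and 60.6 in the GFP-negative and GFP-positive lists, against 62.5 and 43.9 for the rest. Over 4 equal bins of single-copy members, ordered from weak to strong by the lower of both percentiles, the CpG-rich share went from 6.10% through 7.52% and 9.12% to 19.6%. The share in RefSeq promoters was 6.90%, 7.96%, 7.43% and 11.6% over the same bins. Of the 479 CpG-rich single-copy members, 69 (14.4%) lay in RefSeq promoters and 61 (12.7%) in RefSeq gene bodies. How far such promoters account for the CpG-rich share was not tested.

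The strongest single-copy members were named by that lower percentile. The region at chr15:85634200-85635459, whose ETS match is printed above, had the highest fold enrichment of any member in GFP-negative cells, 56.1, and 27.9 in GFP-positive cells. It lay 52.4 kb from *Wnt7b*, a WNT ligand gene, and inside the RefSeq promoter window of the transcript *D130051D11Rik*. The region at chr19:61265228-61267793 had values of 34.5 and 30.9, and the one at chr1:86485965-86489423, 39.0 kb from *Ptma*, of 29.9 and 17.8. The region at chr18:36274237-36275490 had values of 44.6 and 28.7 and lay 6.23 kb from *Pura*, which encodes a nucleic acid binding protein. The region at chr11:109011646-109012101 had level values of 18.4 and 18.996 and lay 68.3 kb from *Axin2*, a feedback inhibitor and target of WNT signaling. In the RefSeq annotation it lay inside the body of the gene *Gm36876*. Narrow regions at chr16:17222340-17222531 near *Hic2* (11.3 and 9.91) and at chr18:54699073-54699375 (10.8 and 10.1) had high −log10 q at lower enrichment. The region at chr6:3200790-3201567 reached −log10 q values of 186 and 231 at fold enrichments of 7.89 and 8.82. Its window shared 34 of its 31-base words with the ribosomal RNA locus *Rn18s-rs5*, as did windows of 2 other members to some extent, so the part of ribosomal DNA reads in these 3 was not tested. The highest −log10 q of any member, 259 and 276, was at chr3:5860344-5860751 (copy number 7), with fold enrichments of only 4.85 and 4.93.

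Other single-copy members ranked far apart in the lists. The largest surplus in the GFP-negative list was at chr5:116432671-116433561, 10.3 kb from *Hspb8*, a small heat shock protein gene, with a fold enrichment of 15.8 against 2.60 and percentiles of 94.5 and 3.69. Next came chr9:105838266-105839483 near *Col6a6*, a collagen gene, with 12.8 against 2.81, and chr1:189012713-189014053 near *Kctd3* with 8.96 against 2.29. In the other direction, chr1:153915216-153916667, 9.90 kb from the glutamine synthetase gene *Glul*, had 2.81 in GFP-negative and 7.28 in GFP-positive cells and percentiles of 7.31 and 84.3. The regions at chr11:115710895-115713780 near *Grb2*, an adaptor of growth factor signaling, and chr4:152000902-152001213 near *Phf13* had 3.31 each in the GFP-negative list and 7.55 and 7.17 in the GFP-positive list. A gap from the top 10% of the GFP-negative list to the lower 50% of the GFP-positive list was found in 92 single-copy members, and the opposite gap in 6. These are gaps in rank within lists of unlike length.

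Exact matches to the CTCF consensus, on either strand within 200 bp at the summit, were found in 178 single-copy members (3.94%, 3.41 to 4.54). Of 3543 single-copy members with the summits of both lists within 200 bp, 4.91% (4.25 to 5.67) held a match. Matches were found in 0.276% of the windows 2 kb to either side of single-copy members and in 0.0958% of background windows. Single-copy intergenic regions of the GFP-negative list alone held a match in 2.497% (2.25 to 2.77), those of the GFP-positive list alone in 0.948% (0.676 to 1.33) and promoter regions bound in both states in 1.23% (1.06 to 1.42). None of 3694 multi-copy members held one, which allows a share of up to 0.0812% taken as 3 counts, or 0.104% as the Wilson limit. The share showed no order over the bins of strength, at 4.51%, 2.74%, 4.51% and 3.98% from the weakest to the strongest.

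The SP pattern (GGGGCGGGG), a GC box bound by SP and KLF factors, was held by 3.85% (3.33 to 4.45) of single-copy members, 0.730% of their flanks, 15.0% of promoter regions bound in both states and 0.239% of background windows. Single-copy regions of the GFP-negative list alone held it in 2.83% (2.57 to 3.13) and those of the GFP-positive list alone in 1.06%. Over the bins of strength the share of members was 2.65%, 2.30%, 3.81% and 6.64%, highest in the strongest members. The KLF pattern (GGGTGTGG) was held by 5.95% (5.30 to 6.68), against 1.958% of flanks, 6.67% of single-copy regions of the GFP-negative list alone and 1.03% of background windows. The ETS pattern was held by 1.11%, against 0.177% of flanks, 4.55% of promoter regions bound in both states and 0.0871% of background windows. Its share was 0.595% of single-copy regions of the GFP-negative list alone and 0.460% of those of the GFP-positive list alone. Runs of CA (6 units) were rarer at summits than beside them, at 1.37% against 4.04%, and were found in 2.997% of background windows.

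The NRF1 pattern (GCATGCGC) was held by 1.06% of single-copy members, 0.719% of flanks, 2.91% of promoter regions bound in both states and 0.168% of background windows. The AP-1 site (TGACTCA or TGAGTCA) was held by 5.82%, 3.63%, 2.49% and 3.003% of these classes. Single-copy regions of the GFP-negative list alone held the NRF1 pattern in 0.566% and the AP-1 site in 6.26%. For those of the GFP-positive list alone the shares were 0.546% and 4.68%. The palindrome bound by DUX (TGATTNAATCA), a factor that activates 2-cell genes, was held by 2 single-copy members (0.0442%), by 0.259% of single-copy regions of the GFP-positive list alone and by 0.0259% of background windows.

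Matches to the OCT4-SOX2 composite, the ESRRB pattern and the octamer were few, unlike those to the KLF pattern given above. The OCT4-SOX2 composite was found in 30 single-copy members (0.664%, 0.465 to 0.946), against 0.0774% of flanks, 1.29% (1.11 to 1.49) of single-copy regions of the GFP-negative list alone, 0.0287% of those of the GFP-positive list alone and 0.132% of background windows. Of members ranked over 25 points higher in the GFP-negative list, 1.39% (0.921 to 2.10) of 1580 held it, against 0.315% (0.160 to 0.620) of 2540 within 25 points and 0 of 401 ranked over 25 points higher in the GFP-positive list, which allows up to 0.748% taken as 3 counts, or 0.949% as the Wilson limit. The region at chr7:63955275-63958710, whose site is printed above, had fold enrichments of 17.0 and 5.14, and the one at chr16:21700972-21702947 of 18.5 and 7.92. The ESRRB pattern (TCAAGGTCA) was not more frequent at single-copy members (0.597%) than beside them (0.719%), and background windows held it in 0.405%. The octamer (ATGCAAAT) was held by 1.88%, against 1.13% of flanks and 1.93% of background windows. Single-copy regions of the GFP-negative list alone held the ESRRB pattern in 1.42% and the octamer in 2.70%. For those of the GFP-positive list alone the shares were 0.891% and 0.862%.

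**Figure D5:**
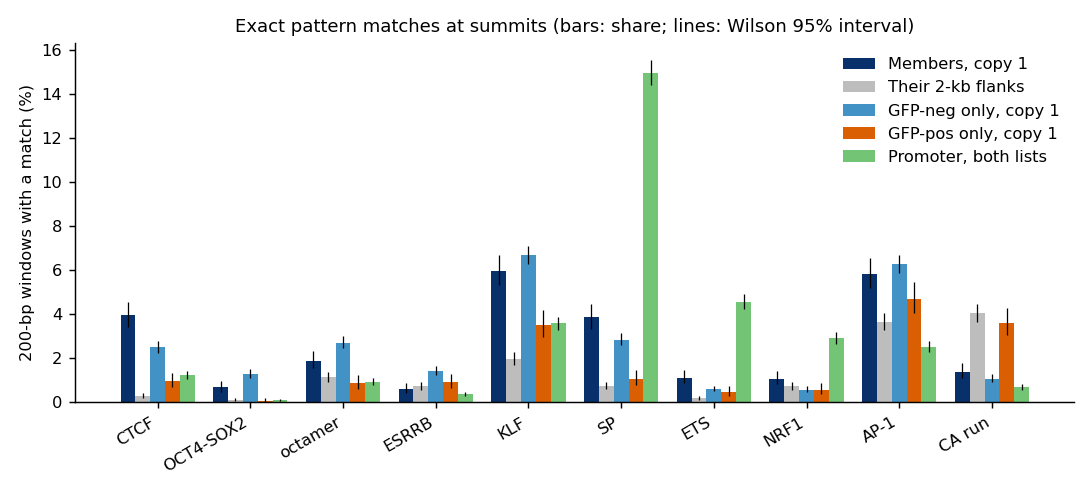
Share of 200-bp windows with an exact match (y axis, percent, with Wilson 95% intervals as lines) for 10 patterns (x axis) in single-copy members, their flanks 2 kb away, single-copy intergenic regions of either list alone and promoter regions bound in both states. CTCF is highest in the members, at 3.94%, and SP, ETS and NRF1 in the promoters.

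Words of 8 bases were counted without a list of factors. They were ranked by their share at summits over their share in flanks, on 2585 single-copy members of odd-numbered chromosomes, among words in at least 2% of summits, and their values were then read on 1936 members of even-numbered chromosomes. The first was CGCCCCTC (reverse complement GAGGGGCG), in 1.76% of the latter summits and 0.362% of flanks. It was followed by AGTGGGCG (1.08% and 0.155%), GCCCCGCC (5.27% and 0.620%), GCGCCCCC (1.86% and 0.181%) and GCTCCGCC (2.69% and 0.258%). Of the first 40 of 1029 ranked words, 30 held CG, and 6 held CCAAT or its reverse complement, the box bound by the trimeric factor NF-Y. The shares over all 1029 words are not given here, so these counts have no background. All 6 held the same stretch, CCAATC or its reverse complement. The first of those, GCCAATCA, was found in 3.46% of summits and 0.620% of flanks. All 40 were more frequent at summits than in flanks on the even-numbered chromosomes. The words overlap each other and are not independent.

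Gene lists were counted by members within 100 kb of the gene body. Of 20807 protein-coding genes, 11493 (55.2%) had a member this close. In the pluripotency list 13 of 21 genes had one (61.9%, 40.9 to 79.2), in the 2-cell list 17 of 25 (68.0%, 48.4 to 82.8), in the germ layer list 12 of 20 (60.0%, 38.7 to 78.1), in the trophoblast list 6 of 10 (60.0%, 31.3 to 83.2), in the primitive endoderm list 4 of 10 (interval 16.8% to 68.7%) and in the imprinted list 7 of 20 (35.0%, 18.1 to 56.7). Each interval holds the share of all genes. Counting single-copy members alone, 11 of 21 pluripotency genes, 5 of 25 2-cell genes, 10 of 20 germ layer genes, 6 of 10 trophoblast genes, 3 of 10 primitive endoderm genes and 4 of 20 imprinted genes had one, against 41.4% of all genes. Neighboring genes of the 2-cell clusters share members and are not independent.

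*Pou5f1*, which encodes OCT4, had the most members of any listed gene, 17, of which 14 were single-copy. Their fold enrichment ranged up to 7.52 in the GFP-negative list, 5.19 kb upstream of the gene, and up to 7.99 in the GFP-positive list, 41.8 kb downstream of its start. *Nanog*, a core pluripotency factor, had 9, of which 8 were single-copy. The member 4.57 kb upstream of *Nanog* (chr6:122702078-122703768) had 11.6 in GFP-negative and 5.14 in GFP-positive cells, while the one 90.7 kb upstream (chr6:122615845-122617739) had 4.50 and 18.9. *Sox2* had none within 100 kb, and 7 intergenic regions of the GFP-negative list alone. The median number of such regions was also 7 over the pluripotency list, and 1 over all protein-coding genes. In the 2-cell list, *Tdpoz3* and *Tdpoz4* had 4 each, 3 of them in common and none single-copy, beside 30 intergenic regions of the GFP-positive list alone at each gene. The median number of GFP-positive-only regions was 9 over the 2-cell list and 0 over all protein-coding genes.

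Of the lineage lists, *Mixl1*, a primitive streak factor, had 4 members and *Pax3*, a neural crest and muscle factor, had 3. A *Pax3* member 49.9 kb upstream (chr1:78246604-78247450) had a copy number of 1757.5 and values of 16.5 and 7.45. The adjacent keratin genes *Krt8* and *Krt18* had the same 5 members, all single-copy, the strongest at chr15:101983509-101984876 with 10.6 and 5.41. *Hnf4a*, a nuclear receptor gene of endoderm, and the laminin gene *Lamb1* had 2 each. Among imprinted genes, *Mcts2* had 5 and *Dlk1*, a paternally expressed ligand, had 2.

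The limits of the rule cut through continuous values. The widest members were 3939 and 3949 bp and the next regions above the limit 4017 and 4037 bp, of 55 intergenic regions bound in both states that were wider than 4 kb. The members nearest to a transcript start lay 527 and 531 bp from it, downstream of *AC087233.2* and *Gm48926*, and the promoter regions farthest from theirs lay 2498 and 2499 bp away, at *Zfp626* and *Kcnn1*.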

How the data were processed

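DPPA4 CUT&RUN was deposited as 2 peak lists, each pooled by the authors over 2 libraries of 1 sorted group; the other 2 of the 6 samples, IgG libraries, were not used here. Per the study's methods and processing notes, the authors trimmed reads with bbduk, aligned them to mm10 with STAR 2.7.10 with reads of many matches placed at 1 best or random position, removed duplicates with Picard 2.26.0 and blacklisted reads, used SAMtools 1.14 and bedtools 2.30.0, and called peaks with MACS2 2.2.6. The deposited values per peak are a score (not used for any result), the fold enrichment (a ratio of fragments at the summit to local background) and −log10 p (not used) and −log10 q as the authors' caller gave them; the lowest deposited −log10 q on these chromosomes was 1.30. No per-sample column was left unused (0 columns). Whether IgG served as the control in peak calling, and the reads kept per list, are not given in the sources used here; the methods give a nominal depth per library only.

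The members and gene lists were chosen with earlier results of these data known. Members were found with Python 3.11.15, numpy 2.4.6, pandas 2.3.3 and numba 0.67.0. Merging, copy counting, pattern matching, the finding of long frames and the Wilson interval were tested on simulated data, and the other steps were not. Named members were, by rule, the 8 strongest single-copy and 4 strongest multi-copy members by the lower of both percentiles, the 3 with the largest surplus in each list, the 5 densest windows, the 5 top 8-base words, the 2 genes with most members per list, and 2 regions on either side of each limit. The 3 strongest CpG-rich members by the same percentile were those at chr3:5860344, chr6:3200790 and chr19:61265228. The reading-frame counts, the strand of the YY1 pattern, the examples shown with it, the sequences centered on factor sites, *Sox2*, the member 90.7 kb from *Nanog* and the members at *Pax3* were chosen after their values were seen. Alternatives covered the peak threshold, overlap, position, width, copy number and window size. No difference was tested, since no replicate values exist.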

Additional observations from a re-analysis of the deposited data

How the results depend on the processing

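No paired analysis was possible because each list pools its replicates, so no library could be left out either. Of 79 alternative values over 10 results, 37 stayed near the reported value (within 1.5 times for the number of members, within 1 SD over chromosomes for soft-masked bases, and within the 95% interval of the reported value for the rest) and 42 moved. The number of members was 7045 to 8707 under the alternatives within that limit. With a −log10 q of at least 5 required of every peak, members numbered 3694 (equal by chance to the number of multi-copy members), with median fold enrichments of 9.43 in GFP-negative and 8.405 in GFP-positive cells, summits within 200 bp in 83.4%, 67.1% soft-masked bases, 69.1% multi-copy, 42.3% CpG-rich, 1.11% with the CTCF consensus and a median of 23.7 kb to a transcript start. The frame share was taken on the original members instead, without merging anew. Of high-copy members whose strongest peak in each list reached a −log10 q of 5, 1614 of 2363 (68.3%) lay upstream of a frame. Restricted to copy number 1, the values were 4521 members, 5.19, 3.96, 78.4%, 23.9% soft-masked, 10.6% CpG-rich, 3.94% with CTCF and 10.3 kb. With 5 kb around transcript starts left out they were 6.07, 5.08, 47.1% multi-copy, 27.5% CpG-rich, 1.70% with CTCF and 21.0 kb. A width of up to 2 kb gave 5.73, 4.81 and summits within 200 bp in 82.7%. Both next alternatives were chosen after seeing the data. Outside RefSeq genes, the values were 4.95 in GFP-positive cells, 45.5% multi-copy and 17.6 kb, and with summits within 200 bp they were 6.09, 5.01, 44.0% multi-copy, 26.7% CpG-rich, 2.56% with CTCF and 17.1 kb. The multi-copy share was 48.1% from 2 copies and 36.5% from 100. The CpG-rich share was 13.0% with the stricter limits and 18.1% in windows of 500 bp, and the CTCF share 1.32% in windows of 100 bp. Frames of 1200 codons or more were downstream of 53.2% of high-copy members, also chosen after seeing the data. The cause of these moves was not tested where the alternative's own construction does not show it.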
